A study of Mus musculus with 2 samples.

Results

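The genes of the proteasome were examined in bone marrow progenitor cells of nondiabetic and diabetic mice. A gene was a member when its symbol was Psm followed by a letter from a to g and a number, and 47 of the 21360 genes that could be named were of this kind. Of the 48 symbols of this form in the reference, Psme2 was matched by no probe and was not analysed here. The 47 genes were read by 57 probes on 66 spots. They cover the core particle, the regulatory particle, activators, the inhibitor Psmf1 and assembly chaperones.

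The study used LSK cells, the lineage-negative, Sca-1-positive and c-kit-positive fraction of bone marrow in which hematopoietic stem and early progenitor cells are found. Both groups were C57BL/6J mice, labelled as female, while the paper speaks of male mice without naming those of the arrays, and no age was given in the labels. One group was nondiabetic, and in the other diabetes had been induced with streptozotocin (STZ), a toxin that destroys insulin-producing β-cells. RNA from 3 mice was used for each group, 8.3 ng of it was amplified as cDNA, and each group was hybridized to 1 Agilent array labelled with Cy3. With 1 array per group there was no spread between animals, no test was possible, and no ratio given here has a replicate check.

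Intensities are given on a scale on which the 75th percentile of each array is 100, so that they can be compared between the arrays for the same probe but not between genes. Before scaling that percentile was 168 on the nondiabetic and 182 on the diabetic array. Every log2 ratio and fold compares the diabetic with the nondiabetic array. A probe was read as measured when the scanner software marked it as well above background, which held for 62.7% of spots on the nondiabetic and 63.9% on the diabetic array. No spot was saturated. The error given after ± is the software's own error of a spot, carried to the log2 ratio. It was 0.20 for most members and covers neither amplification nor mice.

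The proteasome degrades proteins that carry ubiquitin chains. Its core particle is a barrel of alpha and beta rings, with the catalytic sites on the beta subunits facing the inside. The regulatory particle caps the barrel, and consists of a base with ATPases that unfold the substrate and a lid that removes the ubiquitin. In blood and immune cells the catalytic beta subunits can be exchanged for Psmb8, Psmb9 and Psmb10, which form the immunoproteasome and favour the production of peptides for class I antigen presentation. Hematopoietic stem cells are known for low protein synthesis and a tight control of protein quality.

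Proteasome genes showed little common shift between the groups. Of the 47 members, 45 were measured on both arrays, and their median log2 ratio was 0.03, against 0.01 over the 13467 named genes measured on both arrays. The ratio was above 0 in 23 members and below 0 in 22. In diabetic mice Psmg3 and Psmd6 were higher by 2-fold or more and Psmd13 was lower by 2-fold or more, while 42 members stayed within 2-fold and none reached 4-fold. Of all 15192 genes with a ratio or a bound, 11.0% were higher and 10.1% lower by 2-fold or more, so the members past 2-fold, 2 of 45 upward and 1 of 45 downward, were below the background share. That share includes bounds, while no member had one. Of the 13467 genes measured on both arrays, a smaller share passed, 1271 upward and 1137 downward. Most members were bright, with 35 of the 45 in the brightest of 3 equal bins of measured genes, where 6.86% of genes passed 2-fold in either direction and 1 of the 35 members did. In that bin the median size of the log2 ratio, without sign, was 0.32 for members and 0.28 for all genes. In the middle bin 2 of 6 members passed 2-fold, against 22.9% of genes. In the dimmest bin 0 of 4 members did, against 23.9% of genes. The ratio of 12 members was smaller than its own software error.

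**Figure D1:**
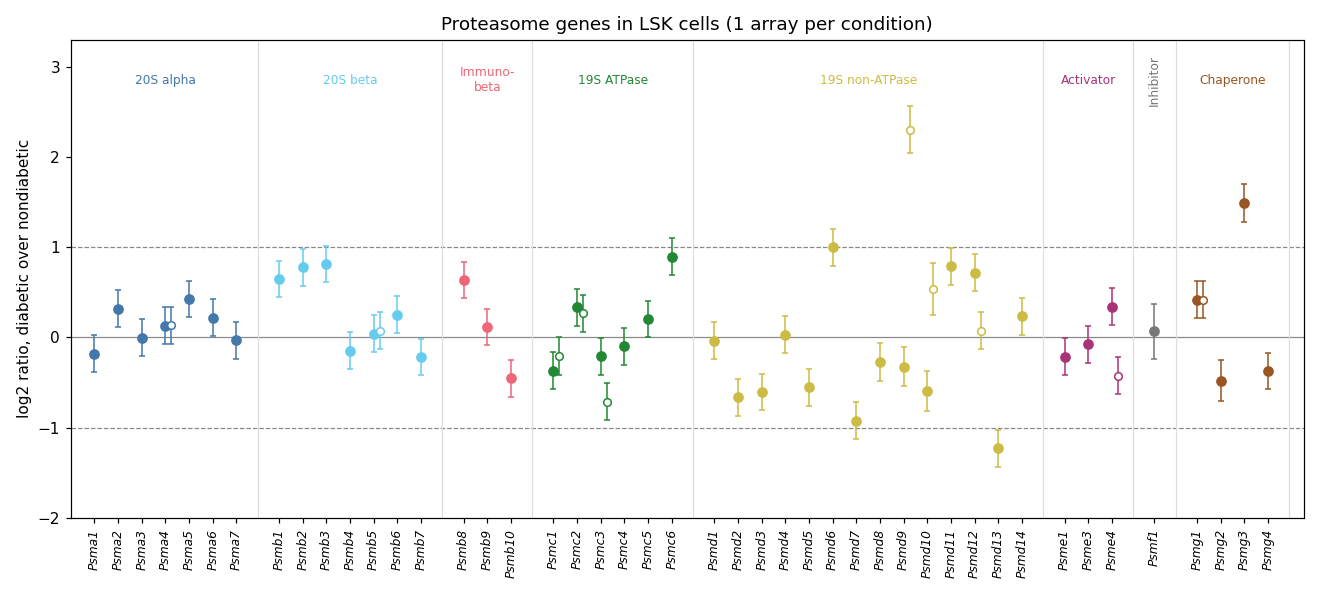
Log2 ratio (diabetic over nondiabetic, 1 array each) of the 45 proteasome genes measured on both arrays, in order of their role. Filled points are the probe that stands for the gene, open points the other probe of the same gene, bars the software's spot error, and dashed lines mark 2-fold. Among filled points Psmg3 and Psmd6 reach the upper line and Psmd13 passes the lower one, and the open point at 2.30 is the second probe of Psmd9.

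The alpha subunits, which build the outer rings of the core and gate its entrance, differed little between the groups. All 7 measured alpha genes lay between -0.18 (Psma1) and 0.43 (Psma5) on the log2 scale, with a median of 0.13 and 4 of 7 above 0. Psma5 was read at 585 in nondiabetic and 787 in diabetic cells. Psma1 was read at 868 and 767, a log2 ratio of -0.18 ± 0.20. For Psma7 the arrays gave 2661 and 2602, a log2 ratio of -0.03 ± 0.20, so that the groups were within the error of a spot. Psma8, an alpha subunit of the testis, was not well above background on either of the arrays, at 1.84 and 6.23, and has no ratio. The germ cell marker Ddx4, read beside it, was well above background on both, at 9.62 in nondiabetic and 71.7 in diabetic cells. Its part in the reading of Psma8 was not tested.

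Among the 7 beta subunits Psmb1 to Psmb7 the ratios were uneven. Psmb1, Psmb2 and Psmb3 were higher in diabetic mice by 1.57-, 1.71- and 1.76-fold, whereas Psmb4 and Psmb7 were slightly lower. Psmb3, a structural subunit without catalytic activity, was read at 765 and 1344, a log2 ratio of 0.81 ± 0.20 and the highest of the group. Psmb4, also structural, was read at 2670 and 2409, a log2 ratio of -0.15 ± 0.20. The median of the 7 genes was 0.25, with 5 above 0 and none past 2-fold. Over the 14 measured alpha genes and beta genes Psmb1 to Psmb7 together the median was 0.18, with 9 above 0 and 5 below. Under the 8 other processing settings tried it was lowest after quantile normalization, at 0.14, and highest after median centring, at 0.20. Leaving out the filter on dim probes or the bounds could not change it, since all 14 genes were measured on both arrays.

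The catalytic subunits of the standard core and their immunoproteasome counterparts were then set side by side. Psmb5, which carries the chymotrypsin-like activity, was nearly equal in both groups, at 741 and 763, with a log2 ratio of 0.04 ± 0.20. A second Psmb5 probe gave 0.07. Its counterpart Psmb8 was higher in diabetic mice, at 658 and 1023, which is 1.56-fold and a log2 ratio of 0.64 ± 0.20. The difference between the arrays was thus about as large as for Psmb1 and did not reach 2-fold.

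Psmb6, the subunit with caspase-like activity, was read at 248 and 296, a log2 ratio of 0.25 ± 0.20. Psmb9, which takes its place in the immunoproteasome, was read at 1732 and 1878, a log2 ratio of 0.12 ± 0.20. The arrays differed by 1.19-fold for the first gene and by 1.08-fold for the second. Psmb7, the trypsin-like subunit, was read at 409 and 352, a log2 ratio of -0.22 ± 0.20. Psmb10, its counterpart, was read at 415 and 303, a log2 ratio of -0.45 ± 0.20. The 3 immunoproteasome genes therefore had no common direction: Psmb8 was higher, Psmb9 near equal and Psmb10 lower in diabetic mice. This order held after normexp background correction, quantile normalization and loess. The other settings left these genes unchanged or shifted all genes equally, so they could not alter it. Psmb11, the beta subunit of thymic cortical epithelium, was also not well above background, at 2.26 and 4.28. Foxn1, the marker of thymic epithelium, was read close to background at 11.7 and 13.1.

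The 6 ATPases of the base, which thread the substrate into the core, had a median log2 ratio of 0.05, with 3 genes above and 3 below 0. Psmc6 stood highest, with 202 in nondiabetic and 376 in diabetic cells, a log2 ratio of 0.90 ± 0.20. Psmc1 stood lowest, with 884 and 684 and a log2 ratio of -0.37 ± 0.20. For Psmc3 the arrays gave 2460 and 2126, a log2 ratio of -0.21 ± 0.20. Its second probe gave -0.71, so the direction was shared but not the size. Although these 6 subunits sit in 1 ring of equal copies, their transcripts spread over more than 2-fold in ratio.

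The Psmd genes, the non-ATPase subunits of the regulatory particle and the factors that help to assemble it, had ratios far apart. Of the 14 genes 9 were below 0, the median log2 ratio was -0.30, and the range ran from -1.23 to 1.001. With the mean over the probes of a gene the median was -0.03. The split of these genes into lid, base and assembly factors was made after their values had been seen. The lid, the part with the deubiquitinating enzyme Psmd14, showed the wider spread, with 4 of its 8 Psmd genes above 0 and 4 below. Sem1, a subunit of the regulatory particle without a Psm name, is not among the 8. It was read at 1238 and 873, a log2 ratio of -0.50 ± 0.20. The median size of the log2 ratios of the 8 lid genes, without sign, was 0.75, against 0.22 for the 14 core genes and 0.40 for all measured genes.

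Psmd13, a lid subunit, was read at 357 in nondiabetic and 152 in diabetic cells, which is 2.35-fold lower and a log2 ratio of -1.23 ± 0.20. Of all 13467 measured genes, 5.86% had a lower ratio. Psmd7, the partner of Psmd14 in the lid, was 1.89-fold lower, at 2580 and 1363. Psmd3 was 1.52-fold lower. In the opposite direction, Psmd6 was read at 107 and 214, a log2 ratio of 1.001 ± 0.20, which is just at the limit of 2-fold. It fell short of 2-fold after quantile normalization, after loess, in the authors' own values and after normexp background correction. Psmd11, whose product clamps the regulatory particle to the core, was 1.73-fold higher and Psmd12 1.65-fold higher by one probe and 1.05-fold by the other. Psmd14 itself was read at 102 and 120, a log2 ratio of 0.24 ± 0.21. Of the 8 Psmd genes of the lid, Psmd13 and Psmd7 were thus lower and Psmd6 higher by close to 2-fold or more, and the other 5 differed by less.

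In the base, the ubiquitin receptor Psmd4 was read at 2320 and 2368, a log2 ratio of 0.03 ± 0.20. The scaffold Psmd2 was 1.58-fold lower, at 1337 and 844, and the scaffold Psmd1 had a log2 ratio of -0.03. The factors that chaperone base assembly, Psmd5, Psmd9 and Psmd10, were all below 0 by the probe that stood for the gene, at -0.55, -0.32 and -0.59. For Psmd5 there was 1 probe, whereas the other probes of Psmd9 and Psmd10 gave the opposite direction. A second Psmd9 probe was read at 13.7 and 67.4, a log2 ratio of 2.30 ± 0.26, whereas the first was read at 50.3 and 40.2. A second Psmd10 probe was read at 11.3 and 16.4, a log2 ratio of 0.54 ± 0.28, and the first at 43.0 and 28.5. The direction of Psmd9 and Psmd10 is therefore not settled by these arrays.

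The activators are caps that open the core without ATP. Psme1, which forms the interferon-inducible cap together with the product of Psme2, was read at 3040 and 2618, a log2 ratio of -0.22 ± 0.20. Its probe was printed on 10 spots, and the ratio had an SD of 0.05 between them, so the reading was repeatable on the array. Psme3, the nuclear activator, was read at 30881 and 29306, a log2 ratio of -0.08 ± 0.20 that turned to above 0 after quantile normalization and after loess. Psme4, linked to histone degradation and DNA repair, was read at 214 and 270, a log2 ratio of 0.34 ± 0.20, but a second probe gave -0.43 ± 0.20. Psmf1, the inhibitor that competes with activators, was close to background at 11.8 and 12.4, with a log2 ratio of 0.07 ± 0.31.

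The assembly chaperones Psmg1 to Psmg4 guide the formation of the alpha ring, Psmg1 with Psmg2 and Psmg3 with Psmg4 as obligate pairs. Psmg3 had the highest ratio of all members, with 33.7 in nondiabetic and 94.6 in diabetic cells, which is 2.81-fold and a log2 ratio of 1.49 ± 0.21. Of all measured genes, 4.50% had a higher ratio. After normexp background correction it was 0.85. Its partner Psmg4 was read at 248 and 192, a log2 ratio of -0.37 ± 0.20. Psmg1, at 231 and 309, gave 0.42 with both of its probes, and its partner Psmg2, at 36.5 and 26.2, gave -0.48 ± 0.22. In both pairs 1 partner was thus higher and the other lower in diabetic mice.

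How far such single-gene values can be trusted was read from genes with several probes. For 10 members 2 probes were measured on both arrays. The probes agreed in direction for 7 and disagreed for Psmd9, Psmd10 and Psme4, and they differed by more than 2-fold for Psmd9 and Psmd10. The median difference between the probes of a member was 0.33 on the log2 scale. Over all 3245 named genes with at least 2 measured probes, the brightest and the next probe agreed in direction for 55.7% and differed by more than 2-fold for 30.7%, with a median difference of 0.56. By comparison, probes printed at least 5 times had a median SD of 0.13 between their spots. Different probes of 1 gene were thus farther apart than spots of 1 probe, and 31 of the 45 members had a log2 ratio smaller in size than 0.56.

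Genes that work with the proteasome were read as a group. Of 31 listed names 29 were found, the other 2 being older symbols of Sem1 and Ecpas, and 28 of the 29 had a ratio or a bound. In diabetic mice 6 were higher by 2-fold or more and 0 were lower by as much, against the 11.0% and 10.1% of all genes. Their median log2 ratio was 0.40, for 27 genes measured on both arrays, and 0.16 with the mean over the probes of a gene. With normexp background correction the count of 6 became 1, Nploc4.

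Several of these genes dock on the regulatory particle. The ubiquitin receptor Adrm1 was read at 14.1 and 40.5, which is 2.87-fold higher. Usp14, a deubiquitinase bound to the base, was read at 107 and 226, which is 2.11-fold higher, and its second probe gave 2.38-fold. Uchl5, the deubiquitinase that Adrm1 recruits, was 1.54-fold higher, with an SD of 0.05 in the log2 ratio between its 10 spots. The segregase cofactor Nploc4 was read at 91.0 and 228, which is 2.50-fold higher. Ufd1, which forms a heterodimer with Nploc4, was 1.63-fold lower, and its second probe was 2.48-fold lower. The shuttle Ubqln1 was not well above background in nondiabetic cells and was read at 31.1 in diabetic cells, which is at least 5.13-fold higher against the lowest signal well above background, 6.07. Pomp, needed for maturation of the core, was read at 1411 and 1891, a log2 ratio of 0.42 ± 0.20, and its second probe gave 0.19.

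When proteasome activity is low, transcription of its subunit genes is driven by Nfe2l1, whose protein is processed by Ngly1 and Ddi2. Nfe2l1 was read at 175 and 100.1, a log2 ratio of -0.80 ± 0.21, hence 1.74-fold lower in diabetic mice. Ddi2, the protease that cuts it, was read at 18.8 and 51.9, which is 2.77-fold higher, and neither array read Ngly1 well above background. Nfe2l3, a relative of Nfe2l1, was read at 19.9 and 62.0, which is 3.12-fold higher. Nfe2l2, which responds to oxidative stress, and its repressor Keap1 were 1.93- and 1.82-fold higher. The regulators thus differed in direction. With normexp background correction the log2 ratio of Ddi2 was 0.61, of Nfe2l3 0.84, of Adrm1 0.52 and of Ubqln1 0.79.

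Psm promoters were searched for the antioxidant response element core TGACNNNGC, which factors of this family bind, on both strands. RefSeq promoters of GRCm38.p6, from 250 bases before to 50 after the gene start, were held for 40 of the 48 Psm symbols, Psme2 included, in 43 windows. No window was found for Psma8, Psmb1, Psmb2, Psmb7, Psmc3, Psmd3, Psmd7 and Psmg2. The core was present in 6 of the 43 windows (14.0%), against 12.4% of all 32851 windows. The 6 genes had a median log2 ratio of 0.30, and the 32 others with a window and a ratio one of 0.01. The 6 matches are shown because the genes that carry them had no common ratio. It was 0.04 for Psmb5, 0.25 for Psmb6, 0.34 for Psme4, 0.72 for Psmd12 and 0.90 for Psmc6, and -0.32 for Psmd9. For Psmd9 and Psme4 the direction depended on the probe. They lie on the strand of the gene at chr14:54618024-54618052 (Psmb5, minus strand), chr11:70525338-70525366 (Psmb6, plus strand) and chr5:123228149-123228177 (Psmd9, plus strand), and on the opposite strand at chr14:45329587-45329615 (Psmc6), chr11:107479278-107479299 (Psmd12) and chr11:30771758-30771786 (Psme4), all 3 genes of the plus strand. Each is printed along the gene, with the core or its reverse complement in capitals.
Psmb5: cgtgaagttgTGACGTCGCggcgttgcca
Psmb6: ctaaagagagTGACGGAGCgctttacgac
Psmd9: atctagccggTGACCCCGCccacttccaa
Psmc6: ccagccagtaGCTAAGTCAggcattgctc
Psmd12: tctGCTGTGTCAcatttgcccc
Psme4: cgctgcggctGCAGCGTCAccagaagagc
A match is a description of the letters and not of a bound site.

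Psmb8 and Psmb9 lie on chromosome 17 next to the peptide transporter genes Tap1 and Tap2, in the order Psmb9, Tap1, Psmb8 and Tap2, with no other annotated gene between them. Tap1, which carries peptides made by the proteasome into the endoplasmic reticulum, was read at 8.46 in nondiabetic and 36.0 in diabetic cells, which is 4.25-fold higher and a log2 ratio of 2.09 ± 0.32. Its 9 spots had an SD of 0.28 in this ratio, but the nondiabetic reading was near the lowest signal well above background, 6.07, and after normexp background correction the log2 ratio was 0.69. Tap2, its partner in the transporter, was 1.43-fold higher.

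Psmb9 and Tap1 are read in opposite directions from starts that lie 226 bases apart, so that their promoter windows share 275 bases. The window of Tap1, chr17:34187306-34187605 on the plus strand of GRCm38.p6, is printed because both genes start in or beside it and had ratios of 0.12 and 2.09. The capitals mark GGGCGG, the core of the GC box, or its reverse complement, a motif added after the data were seen, searched on both strands and held by 35.7% of all windows.
Tap1 and Psmb9: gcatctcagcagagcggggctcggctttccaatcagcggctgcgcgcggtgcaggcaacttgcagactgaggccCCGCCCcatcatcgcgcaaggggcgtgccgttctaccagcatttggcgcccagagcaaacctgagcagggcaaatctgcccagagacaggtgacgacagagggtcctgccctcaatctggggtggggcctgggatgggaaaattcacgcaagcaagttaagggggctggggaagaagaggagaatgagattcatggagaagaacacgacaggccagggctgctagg

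Class I antigen processing and interferon signalling genes, 17 in all and measured on both arrays, had a median log2 ratio of 0.51, with 12 above 0 and 5 below. Tap1 alone among the 17 was higher by 2-fold or more and Irf8 alone was lower by 2-fold or more, against 11.0% and 10.1% of all genes. Irf8, a transcription factor of monocytes and dendritic cells, was read at 176 and 62.6, which is 2.81-fold lower. The interferon-γ receptor genes Ifngr1 and Ifngr2 were 1.81- and 1.87-fold higher, the chaperone Tapbp 1.96-fold and Irf1 1.57-fold higher. Of the presenting molecules, B2m was nearly equal at 3958 and 4111, a log2 ratio of 0.05 ± 0.20. H2-K1 had a log2 ratio of -0.02 by the probe that stood for it and -0.30 by the other, and H2-D1, at 6216 and 4911, was 1.27-fold lower.

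**Figure D2:**
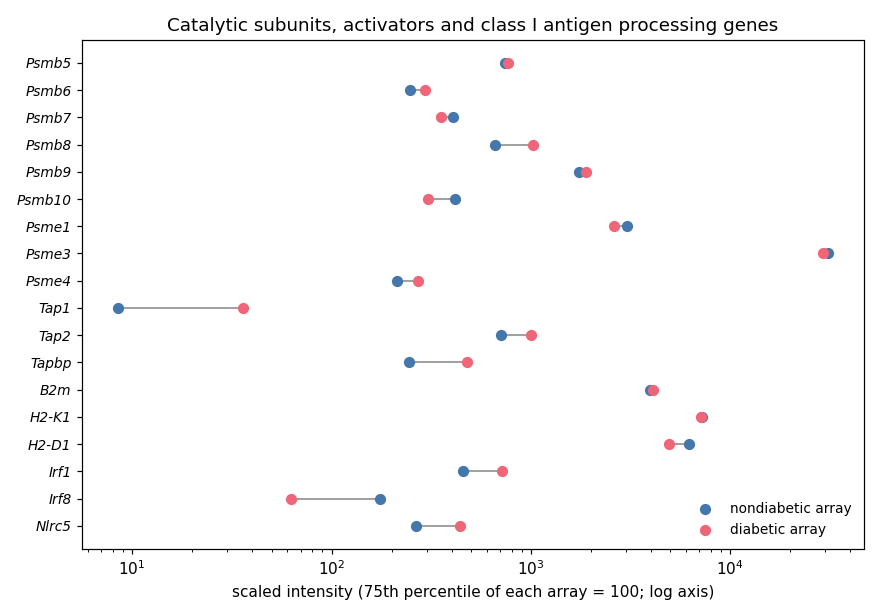
Scaled intensity (log axis, 75th percentile of each array set to 100) of the probe that stands for each gene, on the nondiabetic and the diabetic array, 1 array each. Positions can be compared within a gene and not between genes. The points of Tap1 lie farthest apart (8.46 and 36.0), Irf8 runs the other way (176 and 62.6), and those of Psmb5, Psmb9, B2m and H2-K1 lie close together.

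Markers were read to check the cells. Kit, at 2755 and 2595, and Ly6a, which encodes Sca-1, at 282 and 384, were measured on both arrays, as were Cd34, Flt3 and Procr. Of the 7 stem cell and gate markers 6 were above background on the nondiabetic and 7 on the diabetic array. Their summed intensity was 7093 and 7084, most of it from the Kit and Cd34 probes. Levels of different probes cannot be compared, so this sum does not measure the amount of these cells. Procr had a log2 ratio of -0.59, and Mecom was 2.30-fold lower in diabetic mice by one probe and 1.12-fold by the other, while Slamf1 was at least 2.59-fold higher. Of the 3 stromal and endothelial genes, Col1a1 and Cdh5 were not above background on either array, and Cxcl12 was well above background on the nondiabetic array, at 8.40, and not on the diabetic array.

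Marker genes of blood lineages were also read above background, while the lineage gate should remove mature blood cells. Whether their signal came from mature cells or from progenitors was not tested. The granulocyte and monocyte list, with 6 of 6 genes above background on both arrays, summed to 25686 and 23167. The Itgam probe in the sum, at 20617 and 19283, made up most of it. Since levels of different probes cannot be compared, this sum and those below follow their brightest probe. They do not measure the amount of a cell type. The other Itgam probes were 2.17- and 2.46-fold lower in diabetic mice, S100a8 was 2.78-fold lower and Mpo 1.60-fold lower, while Elane was 1.42-fold higher and S100a9 had a log2 ratio of 0.10. Immunoproteasome genes are abundant in dendritic cells, and the 4 dendritic cell markers summed to 3598 and 3453, mostly by 1 Siglech probe. That probe was 1.07-fold lower in diabetic mice. A second Siglech probe was not well above background in nondiabetic cells and at least 1.70-fold higher in diabetic cells, at 10.3. Within this list the ratios differed, with H2-Aa 2.67-fold higher, Cd74 1.41-fold lower and Itgax at least 4.84-fold lower in diabetic mice. T and NK cell markers summed to 2119 and 1529, with Nkg7 brightest and Cd8a not above background on either array. The Nkg7 probe in the sum was 1.38-fold lower in diabetic mice and a second one 1.82-fold higher. Cd3g was at least 2.74-fold lower and Cd3e 1.30-fold lower. The 4 erythroid markers summed to 1350 and 2866, mostly by Hba-a1. The megakaryocyte markers, led by Pf4, summed to 205 and 338, and the B cell markers to 94.3 and 127, with Ms4a1 not above background. Among the B cell markers Cd79a was higher in diabetic mice, at 23.3 and 66.5, and Cd79b 1.31-fold lower, at 60.5 and 46.3. The part of these cells in the proteasome ratios was not tested, and in bulk RNA fewer cells of a type and less RNA per cell cannot be told apart.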

How the data were processed

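The authors deposited Agilent Feature Extraction 11.5.1.1 output, whose processed intensities are background-corrected and not normalized between arrays. Their value table held these intensities times 1 constant per array (medians 332 and 329; its scaling is not stated). The normalization used in the study is not given in the sources used here. After a log2 transform, the 75th percentile of the 59305 non-control spots was subtracted on each array, outlier spots were left out and the spots of a probe averaged. Unversioned accessions matched to RefSeq (GRCm38.p6) named 28319 probes, and a gene was represented by its probe of highest mean signal. Where a probe was well above background on 1 array, a bound was taken against the lowest such value of the other array, or the probe's own value if higher. No test was made, and the number of arrays limits the precision. Genes were named when past 2-fold, for a set of catalytic and tissue-restricted subunits and activators, and for the highest signal and extreme ratios of each group. Members and lists were chosen with earlier results of these data known. Alternatives were normexp on median spot and background intensities (limma 3.58.1, R 4.3.3, offset 50), quantile normalization, median centring, loess, no filter on dim probes, no bounds, the mean over a gene's probes, and the authors' values. Some listed genes are not reported here. The scaling, the averaging of spots and the ratios of probes measured on both arrays were tested on simulated data. The other steps, bounds and alternatives included, were not.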

Additional observations from a re-analysis of the deposited data

How the results depend on the processing

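The median log2 ratio of the proteasome genes stayed between 0.01 and 0.05 under the 8 alternatives, and the count lower by 2-fold or more stayed at 1. The count higher by 2-fold or more, 2 in the report, was 1 after quantile normalization, after loess and in the authors' values, where Psmd6 fell short, so that 2 higher against 1 lower became 1 against 1. It was 3 with no filter on dim probes, which takes in Psma8, and 0 after normexp background correction. The normexp setting, which changed the input intensities, the background method and an offset of 50 together, left 1 of the 6 proteasome partners and 0 antigen processing genes higher by 2-fold, and the cause was not tested. Of the 11 proteasome, partner and antigen processing genes past 2-fold, 3 remained past it with normexp, and all 11 kept their direction there. The antigen processing count was 2 after quantile normalization, centring and loess. With the mean over probes, 1 proteasome partner, Ufd1, was lower by 2-fold, Psmd9 turned from -0.32 to 0.99 and Psme4 from 0.34 to -0.04, and the median of the Psmd genes was -0.03 in place of -0.30. Small medians of the assembly chaperones (0.02), the activators (-0.08) and the lid (-0.02) changed sign under other scalings. In nondiabetic cells the signal was close to background for Psmf1, Tap1, Adrm1, Ddi2 and Nfe2l3 and not well above it for Ubqln1, which limits their ratios. Psmg3, read at 33.7 in these cells, also had a smaller log2 ratio with normexp, 0.85 in place of 1.49. No paired analysis was possible because each group has 1 array and no test was made.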
